A study of Mus musculus with 2 samples.

Results

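The single copy of the ribosomal RNA gene that mouse build mm9 holds on chromosome 17, Rn45s, was examined for CtBP2 occupancy in MIN6 cells, a line from a mouse insulinoma that stands in for pancreatic beta cells. It was chosen by position, as the 6 kb from 39980001 to 39986000 of chromosome 17 inside a window of 25 kb from 39970001 to 39995000, and it is 1 region set against the 256029 stretches of 10 kb (bins) of the nuclear genome that held input reads. Its ratio of ChIP to input reads was known when it was chosen, so that ratio is given as a description. The data were 1 library of chromatin precipitated with anti-CtBP2 and 1 input library of chromatin not precipitated, both from MIN6 cells in regular culture fixed in 1% formaldehyde for 10 min. Since each group was a single library, spread between replicates could not be measured and no test between groups was made, and the 95% intervals below cover counting error only, since amplified reads without molecular identifiers are not independent molecules. No annotation or sequence of mm9 was used here, so which part of the transcribed unit each stretch holds was not determined, and no sequence is printed. Whether the copy holds a whole unit was not determined either.

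Ribosomal RNA genes lie in the nucleolus in long tandem arrays on several chromosomes, and the arrays are largely missing from assembled mouse genomes. RNA polymerase I transcribes each unit into one long precursor, which is cut into the RNAs of the small and large ribosomal subunits, and some units are kept silent by chromatin. CtBP2 is a co-repressor that binds NAD(H) and is brought to DNA by partner proteins. A read from any array unit can match an assembled copy, so depth there may sum over many units, and neither the number of units nor the share of them bound can be told from read counts.

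The libraries held 34888175 ChIP and 20834562 input reads on the nuclear chromosomes, at 4.12 and 1.67 reads per position and strand. In the text a ratio is the share of ChIP reads divided by the share of input reads, so that 1 means equal shares. In the median 10 kb bin outside blocks of extreme depth the ratio was 0.245, and it lay between 0.0746 and 1.14 from the 5th to the 95th percentile of 254967 bins. The ChIP library thus held fewer reads than its share over most of the genome.

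The rRNA gene copy was far deeper than its surroundings in both libraries and deeper still in ChIP. It held 224340 ChIP reads (95% Poisson interval 223413 to 225270), which was 0.643% of the library, and 29385 input reads (29050 to 29723), or 0.141%. The ratio was 4.56 (exact interval 4.50 to 4.62), which was 18.6 times that of the median bin. Against the ChIP reads over the input reads of all these bins summed, a ratio of 0.809, the multiple was 5.64. Of the 254967 bins, 2.14% had a ratio of 4 or more. Input depth was 4898 reads per kb, 1166 times the median bin, and ChIP depth was 37390 reads per kb. Its 10 kb bin ranked 7th of 264199 bins by ChIP reads and 11th by input reads. The bin's place by ratio was less extreme: 4537 of 254996 bins with at least 10 input reads, or 1.78%, had a higher ratio. Among the 74 bins with at least 1000 input reads it was the fourth, behind bins on chromosomes 16, 3 and 5 with ratios of 5.64, 5.55 and 5.45. Each of those held 1083 to 1318 input reads, against 29401 in the bin of the rRNA gene copy.

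The copy had sharp ends and nearly empty flanks. Counting the positions of 5 prime ends that held at least 5 reads, the first on the plus strand was at 39979941 in ChIP and 39979942 in input, and the last on the minus strand was at 39985776 and 39985773. The ends of the libraries thus lay within 3 bp of each other. In 100 bp steps, the outermost steps with at least 100 input reads began at 39979901 and ended at 39985800, and the first of them lay just before the bounds of the copy given above. It held 1476 ChIP and 214 input reads, and the last held 3502 and 285. Outside these steps the 191 flanking steps of the window held 27 ChIP and 203 input reads in all. The ratio in these flanks was 0.0794 (0.0511 to 0.119), 0.324 times that of the median bin, and no flanking step exceeded 4 ChIP or 7 input reads. The copy exceeded these flanks 57.4 times in ratio (38.3 to 89.2). With the flanks taken as everything outside the bounds given above, their ratio was 2.16, because the outermost step then counted as flank, and the copy exceeded them only 2.11 times. The flanks outside the outermost steps were set once the values had been seen.

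**Figure D1:**
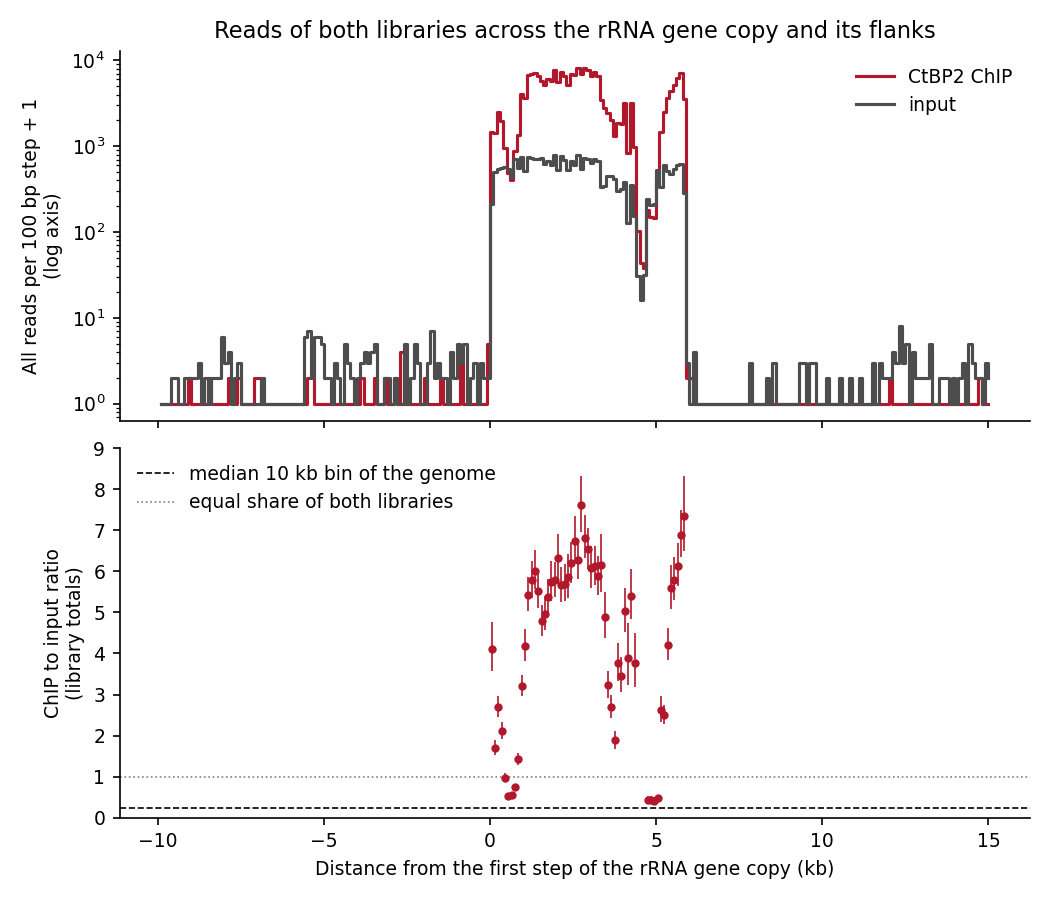
All reads per 100 bp step in both libraries (upper panel, log axis, 1 added) and their ChIP to input ratio with 95% counting intervals in steps with at least 100 input reads (lower panel), by distance in kb from the first such step. The ratio is 4.78 to 7.60 over the 22 middle steps of the first plateau, falls to about 0.5 at 2 places, where it nears the genome median of 0.245 (dashed), and rises to 7.34 at the far end.

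The ratio was not even along the copy. Of its 60 steps of 100 bp, 55 held at least 100 input reads. Over these 55 the ratio had a median of 5.02 and ran from 0.399 to 7.60, a range of 19.1 times, and all 55 intervals lay above the median bin of the genome. ChIP counts ran from 143 to 8245 reads a step and input counts from 128 to 797. Most of the unevenness thus lay in ChIP, with a coefficient of variation of 0.643 against 0.329 in input. Counts of the libraries rose and fell together to some degree (Spearman's rho 0.751 over the 55 steps, which share 1 pair of libraries and neighbouring reads). In 33 of the 55 steps (60%) the ratio was at least 4. Outside the window, 52.0% of the 65670 steps with at least 10 input reads and 4.34% of the 875 steps with at least 100 input reads reached that ratio. Many of the latter were far deeper than the copy, and of the 319 steps with 128 to 797 input reads, the range of the copy, 9.09% reached it. The share in the copy was thus near that of the first background and above those of the other 2. All of these backgrounds are steps chosen for high input. Even 10 input reads in 100 bp is far above the median bin, which held 42 in 10 kb.

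The copy fell into 6 stretches, whose bounds were set once the values had been seen. The left edge, from 39979901 to 39980300, held 7353 ChIP and 1819 input reads and had a ratio of 2.41 (2.29 to 2.54). The first low stretch, from 39980301 to 39980800, held 4039 and 2826 reads, a ratio of 0.854 (0.813 to 0.896). Input there, at 5652 reads per kb, was above the 4898 of the whole copy, and ChIP, at 8078 reads per kb, was below its 37390. The first plateau, from 39980801 to 39983300, held 158886 ChIP and 16464 input reads, a ratio of 5.76 (5.67 to 5.86). This single stretch of 2500 bp held 0.455% of all nuclear ChIP reads.

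Past the plateau the ratio varied from step to step and then dropped. The mixed stretch from 39983301 to 39984300 held 20422 ChIP and 3276 input reads, a ratio of 3.72 (3.59 to 3.86). The second low stretch, from 39984301 to 39985000, held 1079 and 1256 reads, a ratio of 0.513 (0.473 to 0.557). Unlike the first, it was also shallow in input, with 1794 reads per kb, and its first 3 steps held only 30, 15 and 31 input reads. The ratios of these 3 steps were 2.05 (1.35 to 3.19), 1.71 (0.932 to 3.32) and 0.713 (0.430 to 1.19), so the low ratio of the stretch came from its later steps. The second plateau, from 39985001 to 39985800, held 34035 ChIP and 3956 input reads, a ratio of 5.14 (4.97 to 5.31), and ran to the end of the copy. Despite the name it was not level. Its ratio was 2.63 at 39985001 and 2.50 at 39985101, then rose from step to step to 7.34 at 39985701.

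Within the first plateau the 22 steps from 39981001 to 39983200 were close to each other. Their ratios had a median of 5.87, a lowest value of 4.78 and a highest of 7.60, with a coefficient of variation of 0.105. The 3 steps with the highest ratio of the whole copy were at 39982601, with 6851 ChIP and 538 input reads (ratio 7.60, interval 6.96 to 8.32), at 39985701, with 3502 and 285 reads (7.34, 6.50 to 8.31), and at 39985601, with 7125 and 617 reads (6.90, 6.35 to 7.50). Their intervals overlapped, so their order is not resolved at this depth. One lay in the first plateau and the other two at the very end of the copy.

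The deepest steps all lay in the first plateau. Input reads were most numerous at 39981801 (797 reads), 39982501 (786) and 39982001 (773), where the ratios were 5.79, 6.26 and 5.66. ChIP reads were most numerous at 39982501 (8245 reads), 39982701 (8210) and 39982801 (7780), where the ratios were 6.26, 6.82 and 6.53. Depth and ratio did not peak in the same steps: the step at 39982601, highest by ratio, held fewer input reads than the median of 548 over the copy.

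The 3 steps with the lowest ratio adjoined each other in the second low stretch. The step at 39984801 held 143 ChIP and 214 input reads (ratio 0.399, interval 0.321 to 0.495), that at 39984701 held 147 and 204 (0.430, 0.346 to 0.535) and that at 39984601 held 179 and 241 (0.444, 0.363 to 0.540). The step that followed, at 39984901, had 427 ChIP and 521 input reads and a ratio of 0.489. In the first low stretch the lowest ratios were 0.530 at 39980401 and 0.552 at 39980501. All of these were still above the median bin of the genome, and 8 of the 55 steps were below 1.

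**Figure D2:**
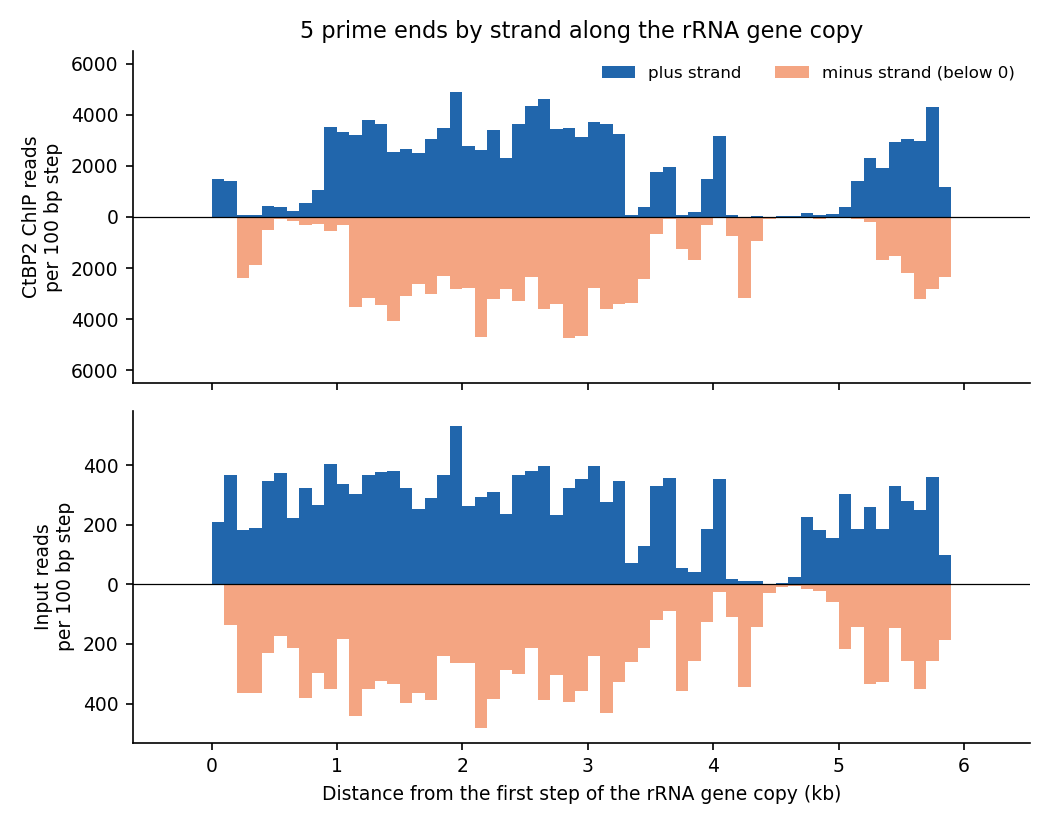
Reads per 100 bp step by strand of the 5 prime end, plus strand above and minus strand below 0, for ChIP (upper panel) and input (lower panel), by distance in kb from the first step of the copy. ChIP reads of the plus strand lead the left edge and both plateaus, and those of the minus strand trail the left edge and the first plateau. Input strands are also skewed at 0 kb and between 3.3 and 5 kb.

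The strands were unequal at the ends of the high stretches. In a ChIP library the 5 prime ends of the plus strand mark left ends of fragments and those of the minus strand mark right ends, so a block of bound fragments starts with plus reads and ends with minus reads. In 18 of the 55 steps over 80% of ChIP reads were on 1 strand, against 9 of 55 in input, and 7 steps passed that limit on the same strand in both. At the left edge, minus reads made up 0.610% of ChIP reads in the step at 39979901 and 3.06% in the step at 39980001, then 97.3% in the step at 39980101 and 95.5% in that at 39980201. In input these 4 steps were 1.87%, 27.0%, 66.6% and 66.0% minus, so plus reads led at this edge in both libraries. The median plus and minus positions of this block were 188 bp apart in ChIP and 113 bp apart in input.

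The first plateau was framed in the same way. ChIP reads were 13.3% and 8.56% minus in the steps at 39980801 and 39980901, between 35.2% and 64.2% minus in each of the 22 steps that followed, and 97.7% and 86.4% minus in the steps at 39983201 and 39983301. Input in these 4 outer steps was 46.4%, 35.6%, 78.7% and 62.5% minus. The second plateau began likewise, with 4.73% and 7.62% minus in ChIP at 39985001 and 39985101 against 43.5% and 56.4% in input. At its far end the libraries were alike, with 66.7% minus in ChIP and 66.0% in input in the step at 39985701. In the mixed stretch ChIP and input were skewed together: the step at 39983901 was 1.16% minus in ChIP and 7.11% in input, and that at 39984101 was 99.6% and 97.2%. There the skew was present in both libraries, and its cause was not tested.

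Reads of the minus strand were also missing at the left end in both libraries. The first minus 5 prime end with at least 5 reads lay at 39980101 in ChIP and 39980058 in input, past the first plus end at 39979941 and 39979942 by far more than the length of a read. Aligned lengths ran from 33 to 38 bp, with 69.3% of ChIP and 63.5% of input reads at 36 bp. At the right end, the last plus end lay at 39985741 in ChIP and 39985722 in input, close to the last minus end. The placing of reads that match several sites is not stated in these sources, and its part in these edges was not tested. Over the whole copy the correlation of plus and minus counts (square root, over positions) was highest at a distance of 205 bp in ChIP, at 0.675, and of 215 bp in input, at 0.267, where the curve was nearly flat (0.257 at 255 bp). With 1 read per position and strand the highest values lay at 300 bp in ChIP (0.541) and 305 bp in input (0.294), so this distance depended on how reads were counted.

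Moving each 5 prime end 100 bp toward the centre of its fragment widened the range of ratios along the copy. The ratio of the whole copy was 4.58 after the move, and 52 steps held at least 100 input reads. Their ratios ran from 0.151 at 39984801, with 101 ChIP and 400 input reads (interval 0.120 to 0.188), to 8.17 at 39982701, with 8095 and 592 reads (7.51 to 8.89). The step with the lowest ratio then lay below the median bin of the genome, and 10 of the 52 steps were below 1. The left edge became a single narrow peak, with a ratio of 4.02 at 39980001 and 2.66 at 39980101 between 0.211 at 39979901 and 0.309 at 39980301. The step at 39979901 then held 48 ChIP and 136 input reads, of which 44 and 136 were minus reads moved from the step at 39980001. Few plus reads lay before the copy to be moved in, so this side of the peak depends on where the copy ends. The mixed stretch resolved into a peak of 3.54 at 39983601 and another of 5.44 at 39984001. Input was also high at these peaks, with 615 and 696 reads. Between them the ratio was 1.29 at 39983701, from 391 ChIP and 181 input reads.

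**Figure D3:**
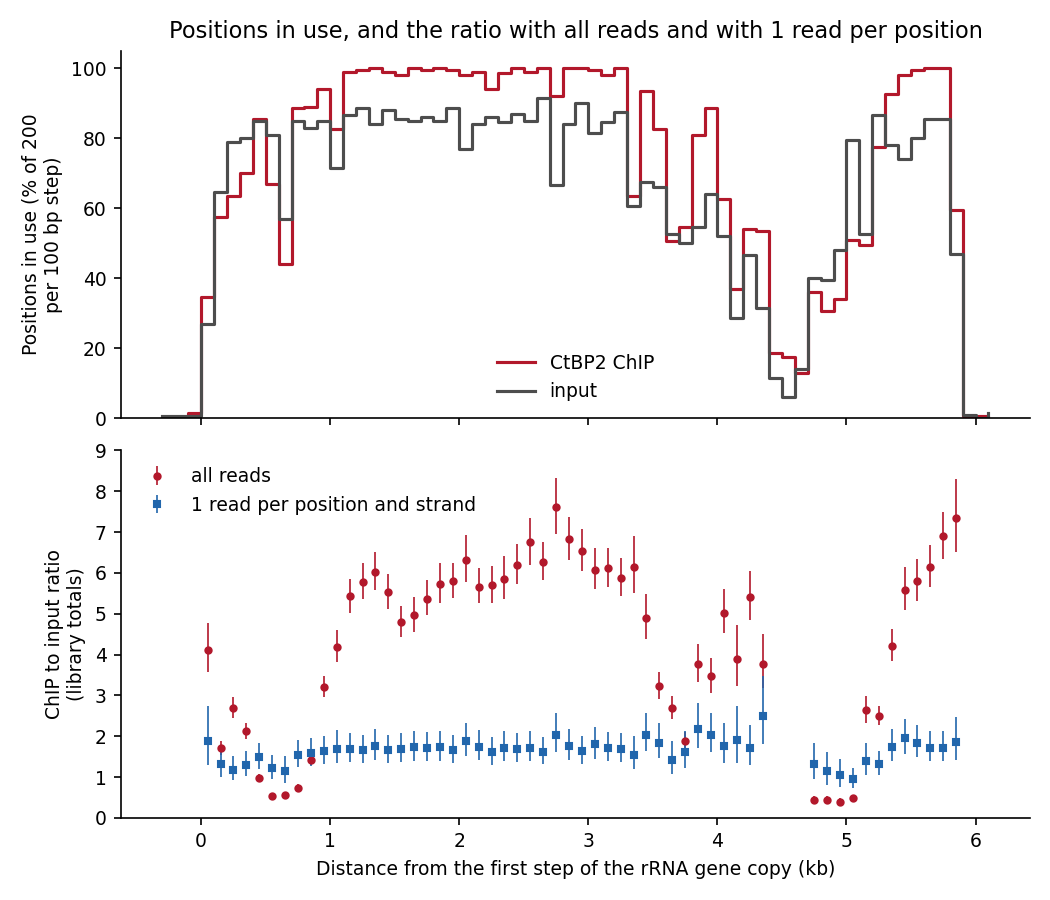
Share of the 200 possible positions per 100 bp step that held at least 1 read (upper panel), and the ChIP to input ratio with all reads (circles) and with 1 read per position and strand (squares) with 95% counting intervals (lower panel), by distance in kb from the first step. ChIP fills nearly every position of the first plateau, and with 1 read per position the ratio stays between 0.944 and 2.50 where all reads give 0.399 to 7.60.

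Keeping 1 read per 5 prime end and strand, a common guard against amplification copies, removed most of this signal. The copy then held 9026 ChIP and 8078 input reads, a ratio of 1.64 (1.60 to 1.69), which was 3.86 times the median bin counted the same way (0.426). None of the 55 steps reached a ratio of 4, against 33 with all reads. A step has 200 positions, and most of the 55 held too many distinct input reads for a ratio of 4 to be possible. The step at 39984401, left out for its 15 input reads, reached 4.29 (2.18 to 9.08) from 35 ChIP and 12 input positions. Outside the window, 64.8% of the 48067 steps with at least 10 distinct input reads reached a ratio of 4. That share is not comparable, since only a step with few distinct input reads can reach 4. The range along the copy shrank to between 0.944 and 2.50 in the same 55 steps. In the 22 steps of the first plateau the ratio was 1.61 to 2.04, with a median of 1.70.

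A ceiling on the number of positions was reached or nearly reached there. A step of 100 bp has 200 positions on both strands, and in those 22 steps ChIP filled 92.0% to 100% of them, with a median of 99.5%, whereas input filled 66.5% to 91.5%, with a median of 85.2%. In the steps filled to 100%, more ChIP reads could add nothing to a count of 1 per position, and in the others they could add little. Over the 12000 positions of the copy, 75.2% were in use in ChIP (Clopper-Pearson interval 74.4 to 76.0) and 67.3% in input (66.5 to 68.2). Of the input positions in use, 90.9% were also in use in ChIP, and in the first plateau 99.0% were.

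Reads were many per position in ChIP. The copy had 24.9 ChIP reads per position in use, with a median of 21 and a highest value of 135, and 3.64 input reads, with a median of 3 and a highest value of 23. In the bins outside blocks of extreme depth the values were 2.22 in ChIP and 1.11 in input. The copy has 12000 positions for its 224340 ChIP reads, so a high value there was bound to follow from depth. Within the copy, ChIP reads per position fell along with ChIP depth, from 32.9 in the first plateau to 5.40 in the first low stretch and 2.69 in the second, where input had 2.63. The expected number of positions in use, had only as many ChIP as input reads been drawn from the copy, was 7140 by the rarefaction formula, 0.884 of the 8078 in input. Pooled over the copy, this share also depends on how unevenly reads lie along it. By stretch it was 1.02 in the first plateau, 0.957 in the second, 0.907 in the mixed stretch, 0.892 in the first low stretch and 0.714 at the left edge. The second low stretch held fewer ChIP than input reads, so it has no such value. Copies made in amplification and separate fragments with the same end cannot be told apart in these files.

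Among the genome's blocks of extreme depth the copy stood first by ratio. These were the 24 runs of 10 kb bins with at least 100 times the input of the median bin, and the other 23 had ratios of 0.0258 to 1.44 with a median of 0.802. The next highest were a block on chromosome 9 from 35110001 to 35120000, with a ratio of 1.44, a block on chromosome 13 from 77570001 to 77580000, with 1.43, and the block with the most reads, on chromosome 9 from 3000001 to 3040000, also with 1.43. None of the other blocks had a step with a ratio of 4 or more, over 584 steps with at least 100 input reads. With 1 read per position the copy ranked second, behind a block on chromosome 7 from 97590001 to 97600000 with 971 ChIP and 235 input reads and a ratio of 6.08, which had 0.943 with all reads.

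Unevenness along a block was not particular to the rRNA gene copy. The standard deviation of the log2 ratio over steps was 1.23 in the copy and between 0.0746 and 1.71 in the 8 other blocks that had at least 10 such steps. The block of 40 kb on chromosome 9 had the smallest, with ratios of 1.20 to 1.54 over 384 steps. That on chromosome 2 from 98500001 to 98510000, the second by reads, had the largest standard deviation, with ratios of 0.113 to 1.59 over 31 steps. By highest over lowest ratio the widest was a block on chromosome X from 166430001 to 166450000, with 0.0653 to 2.24, or 34.2 times, against 19.1 times in the copy. The copy differed from the other blocks in how high its upper steps lay, at 7.60 against at most 2.24 in those blocks.

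**Figure D4:**
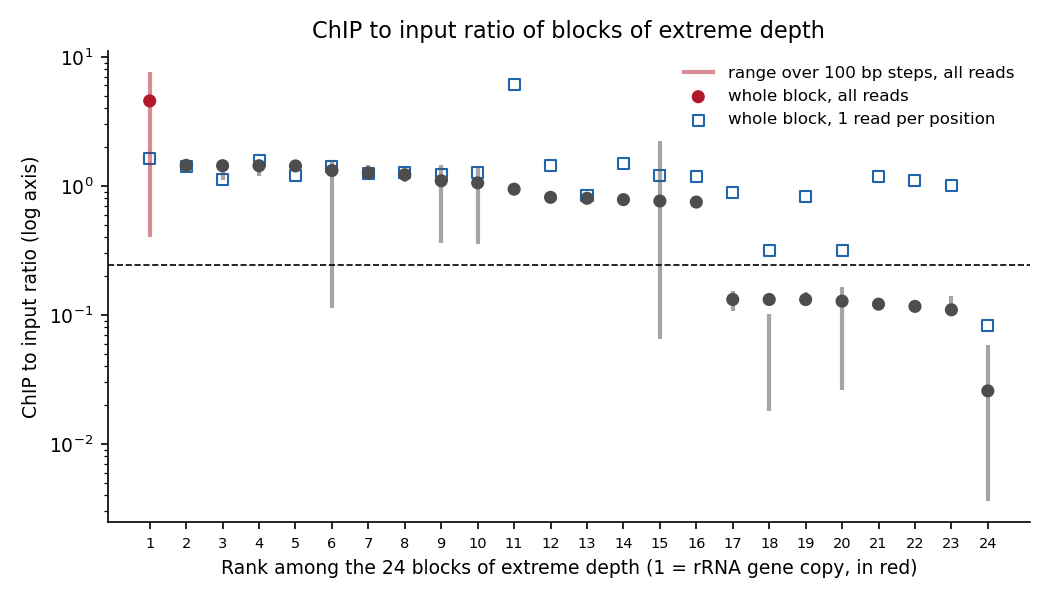
ChIP to input ratio (log axis) of the 24 blocks of extreme depth in order of rank, with all reads (filled circles), with 1 read per position (open squares) and as the range over 100 bp steps with at least 100 input reads (bars); the dashed line is the median bin of the genome. The rRNA gene copy, in red, has a ratio of 4.56 with all reads, above the 1.44 of the next block. With 1 read per position it has 1.64 and ranks second, behind a block with 6.08.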

How the data were processed

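The deposited files hold 1 aligned read per line with chromosome, start, end and strand, in another kind of unit, bp of mm9. The name column is 1 on every deposited line, so the sum over lines gives raw counts of reads, not normalized, and the score column is 0 throughout. The submitters' processing notes name BWA, SAMtools 0.1.19, bedtools 2.17.0 and mm9, without settings. Filters and the placement of reads with several matches are not given in the sources used here. Each read was counted at its 5 prime end, in 100 bp steps and 10 kb bins on 21 nuclear chromosomes, with all reads and with 1 read per position and strand. Ratios were scaled by nuclear totals. Intervals were exact (Poisson, or Clopper-Pearson for ratios and shares) at 95%. Background bins held at least 10 input reads outside blocks with 100 times the median of 42 reads. Python 3.11.15, NumPy 2.4.6, SciPy 1.17.1 and matplotlib 3.10.9 were used, and the ratio, its interval and the strand distance were tested on simulated data. Steps named are the 3 highest and 3 lowest by ratio, the 3 deepest in each library and the outermost ones, and blocks named are the next 3 by ratio and the 2 with most reads. Other steps, stretches and the blocks on chromosomes 7 and X were chosen after their values were seen. The copy and these rules were chosen with earlier results of these data known.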

Additional observations from a re-analysis of the deposited data

How the results depend on the processing

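No paired analysis was possible because there was 1 library a group. Of 35 alternatives, 10 stayed within the counting interval of the reported value, 25 moved and 0 reversed. Only the ratio and its multiples over background and flanks could reverse, by moving to the other side of 1. The range, input depth, positions in use and rank could not be called reversed. For the rank, which has no interval, staying meant an unchanged rank. The ratio of 4.56 was 1.64 with 1 read per position, 1.32 with at most 5 reads per position, 5.23 with bounds narrowed by 1 kb on each side, 5.64 with totals taken without blocks of extreme depth, 4.65 on the plus strand and 4.47 on the minus strand. The multiple of 18.6 over genome background was 3.86 with 1 read per position, 21.3 with the narrower bounds, 5.64 against the sum over bins, 18 against chromosome 17 and 26.7 against bins with ChIP at or below the median. The multiple of 2.11 over the fixed flanks was 2.89 with 1 read per position, 1.66 with the narrower bounds, 32.9 with ends moved 100 bp, 1.57 against the nearest 5 kb and, added after the values were seen, 57.4 outside the outermost steps. These flanks differ in whether they take in steps of the copy itself. The range of 19.1 along the copy was 2.32 with 1 read per position (over the 48 steps with 100 distinct input reads, against 2.65 over the same 55 steps), 54.2 with ends moved 100 bp, 14.5 in steps of 500 bp and 29.5 in steps of 50 bp. Input depth of 1166 times the median bin was 354 with 1 read per position. Positions in use in ChIP were 77.3% with the narrower bounds, and with the outermost steps, also added later, 77.1% in ChIP and 68.9% in input. The rank among blocks was 2 with 1 read per position. The cause of these moves was not tested. The second low stretch is the least precise part, with 15 to 31 input reads in each of 3 steps.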
